A study of Canis lupus familiaris with 34 samples.

Results

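Cardiac sarcomere genes were measured in the mitral valves of 34 Cavalier King Charles Spaniels. Members were 35 genes given by symbol, and a member was read from the feature carrying its symbol, with the canine RefSeq feature taken where a gene was listed both as canine RefSeq and as an aligned human transcript. Of the 23768 features counted, 34 belonged to a member, and TNNI1, the slow skeletal troponin I, was not listed. All 34 passed the filter of at least 100 counts summed over the dogs and were among the 19568 features tested. Each valve gave 1 library of polyadenylated RNA. The 10y-noCHF group held 19 dogs (10 females and 9 males), labelled as controls, that had not developed congestive heart failure (CHF). The 10y-MMVD-CHF group held 15 dogs (6 females and 9 males), labelled as cases, with CHF due to myxomatous mitral valve disease (MMVD). The dogs were elderly, privately owned and collected at euthanasia, and no dog carried an engineered allele. Per the study, nearly all 10y-noCHF dogs had MMVD at a stage before CHF, so it is not a group of healthy valves. Medication, age and stage are not paired with the dogs in the labels and were not analysed here.

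The sarcomere is the contractile unit of striated muscle, in which myosin thick filaments pull on actin thin filaments anchored at Z-discs, while titin spans from the Z-disc to the M-band. A mitral leaflet consists mainly of interstitial cells and matrix under an endothelium, and muscle of the left atrium can extend into the base of the leaflet. Atrial and ventricular heart muscle use different myosin light chains. MYL4 and MYL7 are the atrial forms, MYL2 and MYL3 are the ventricular forms, and MYH6 and MYH7 are the alpha and beta myosin heavy chains.

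Total counts ranged from 46185256 to 82361245 per dog. The 9 interstitial cell markers, among them VIM, COL1A1 and DCN, had counts in all 34 dogs, with a summed level of 14313 to 35822 CPM (counts scaled to the library's effective size) in 10y-noCHF and 16755 to 37254 CPM in 10y-MMVD-CHF. The members together took 0.0861% to 3.46% of all counts in 10y-noCHF dogs (median 0.549%) and 0.0814% to 6.12% in 10y-MMVD-CHF dogs (median 0.741%). In bulk tissue, fewer cells of a type and less RNA per cell cannot be told apart.

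Between dogs the members varied over a very wide range. The ratio of the highest to the lowest dog had a median of 2173 over the 33 members with counts in every dog, from 9.67 for MYH7B to 26003 for MYOM2. A 10y-MMVD-CHF female, CAV1047, was highest for 32 of the 34 members, and a 10y-noCHF male, CAV749, was lowest for 20. To follow this variation, the mean log2 CPM of 17 other cardiomyocyte genes was used as a measure of heart muscle RNA in each valve. These genes include RYR2, CASQ2, CSRP3 and NKX2-5, and none is a member. The measure ran from -0.45 in CAV749 over a median of 4.35 to 8.20 in CAV1047, with no gap between neighbouring dogs above 1.09. Over the 10y-noCHF dogs it averaged 3.85 ± 2.64 (SD, n = 19), and over the 10y-MMVD-CHF dogs 4.06 ± 2.46 (SD, n = 15). The means did not differ detectably, with a difference of 0.21 (two-sided permutation test within sex, p = 0.817). The members and the 17 genes mark the same cell type, so a relation between them was built into the choice of genes, and its interest lies in the members that departed from it.

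**Figure D1:**
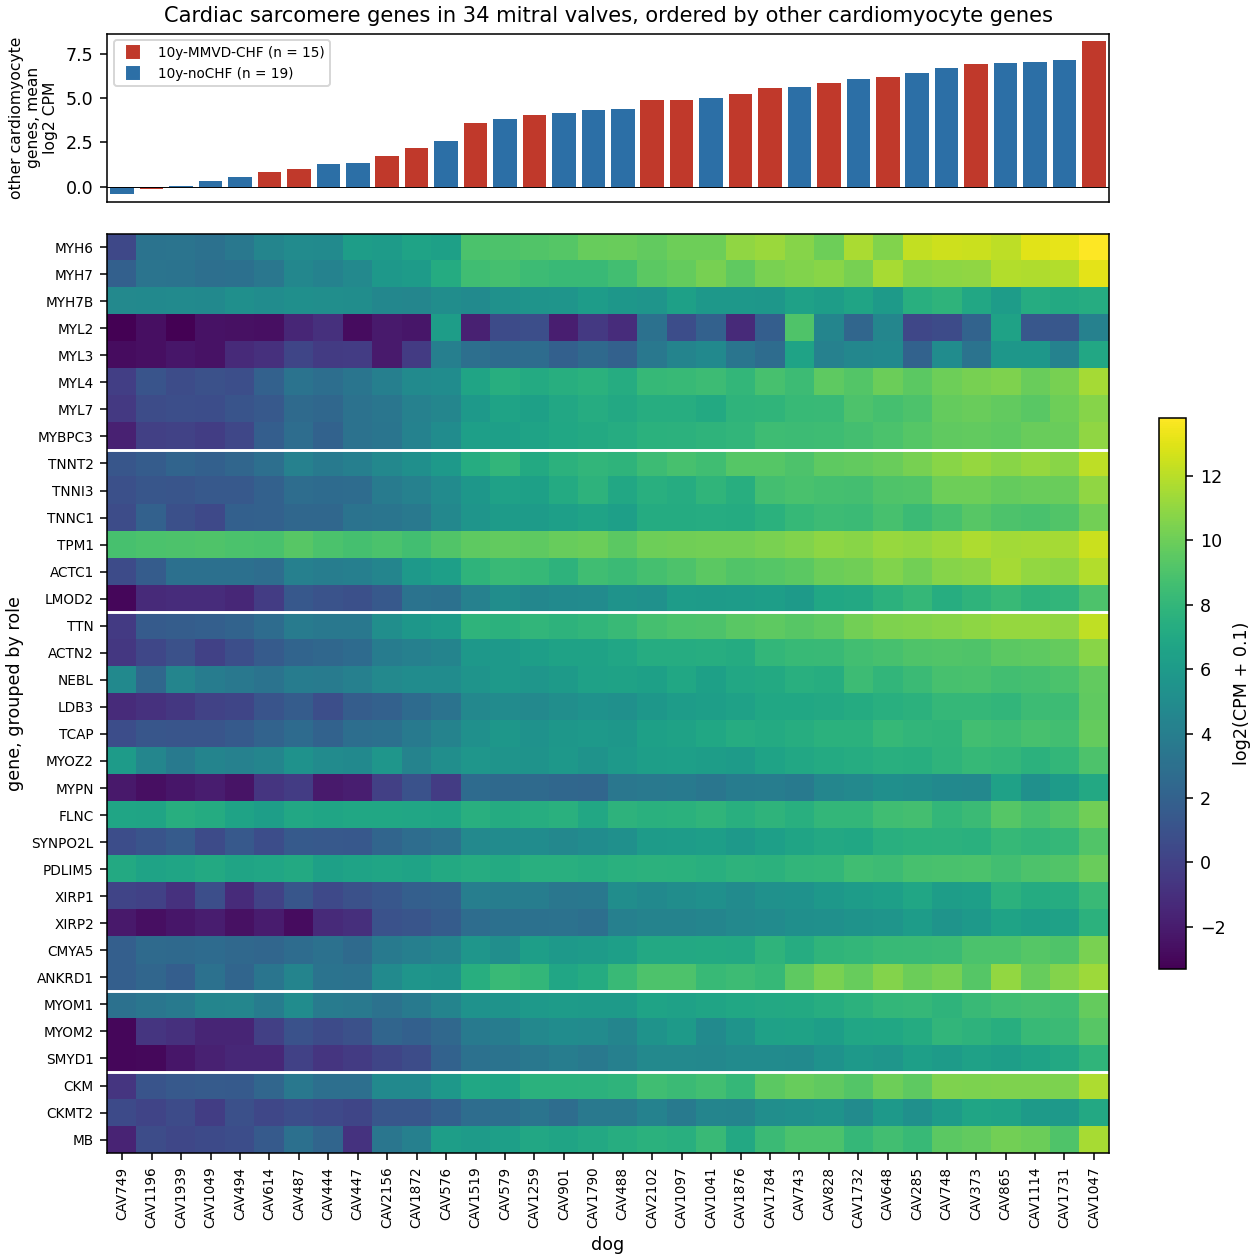
Heat map of log2(CPM + 0.1) of the 34 members (rows, grouped by role with white lines between roles) in 34 dogs (columns), ordered by the mean log2 CPM of 17 other cardiomyocyte genes, which the bars above give (red, 10y-MMVD-CHF; blue, 10y-noCHF). Most rows brighten from left to right, MYL2 is bright in CAV576, CAV743 and CAV865, TPM1, FLNC, PDLIM5 and MYH7B stay bright in every dog, and both colors of bar occur along the whole order.

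Each of the 34 members rose with the other cardiomyocyte genes in a model with sex and CHF (edgeR's quasi-likelihood test, FDR threshold 0.1). Among all 19568 features 41% passed in either direction and 20.4% rose. The slope, in log2 units per unit of the measure, had a median of 1.22 over the members against -0.01 over all features. A slope of at least 0.5 was found in 29 members and in 2.51% of all features. Spearman's rho with the measure was at least 0.9 for 32 members and for 2.61% of all features. The exceptions were the ventricular light chains, with MYL3 at rho = 0.87 (Pearson's r = 0.91) and MYL2 at rho = 0.78 (r = 0.72). Over the members r ran from 0.72 to 0.99 and rho from 0.78 to 0.997. The permutation p for rho was 1e-05 for every member, the smallest that 100000 resamples can give, and 0.000107 after adjustment over all features. For r it was 1e-05 for all but MYL2, where it was 2e-05. Without CAV749 and CAV1196, the dogs farthest from the median of the measure, r was 0.89 for MYL3 and 0.68 for MYL2. Within the 10y-MMVD-CHF dogs r was 0.92 for MYL3 and 0.86 for MYL2, and within the 10y-noCHF dogs 0.90 and 0.65.

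**Figure D2:**
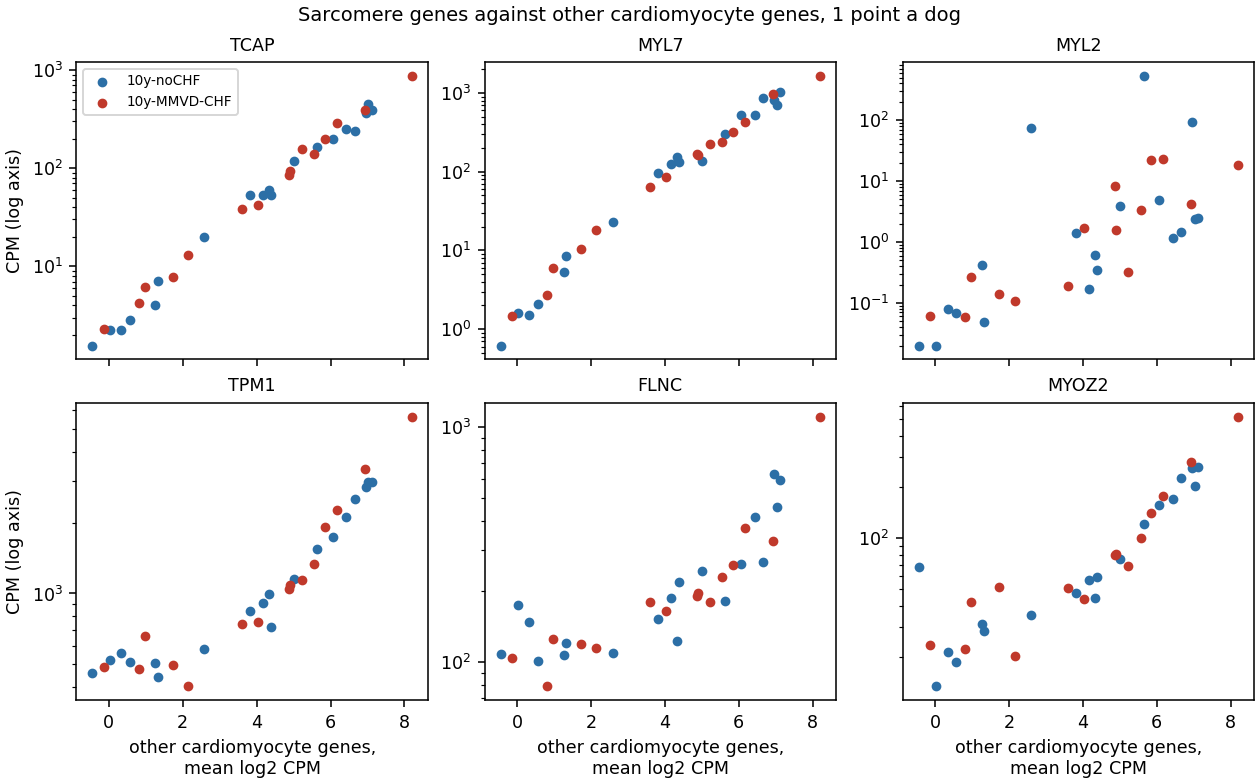
CPM (log axis) of 6 members against the mean log2 CPM of 17 other cardiomyocyte genes, 1 point a dog (red, 10y-MMVD-CHF; blue, 10y-noCHF). TCAP and MYL7 lie close to a line, MYL2 is scattered with 3 blue points far above the rest, and TPM1, FLNC and MYOZ2 vary little among dogs with low values of the measure and rise among dogs with high values.

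The thick filament held 8 members. MYH6 (alpha myosin heavy chain, chr8:3752224-3777632, canFam4, minus strand) was measured at 1.19 to 9217 CPM (median 896) in 10y-noCHF and at 9.13 to 14478 CPM (median 844.5) in 10y-MMVD-CHF. The groups overlapped over almost their whole range, and the highest dog was CAV1047. MYH7 (beta myosin heavy chain, the slow and ventricular form, exons within chr8:3782912-3802783, minus strand) was measured at 3.80 to 3705 CPM (median 405.3) in 10y-noCHF and at 9.66 to 8911 CPM (median 734) in 10y-MMVD-CHF. MYH6 and MYH7 are neighbouring genes with near-identical sequence, so reads may be split between them, and their values are uncertain to that extent. The antisense transcript MHRT overlaps MYH7 and had 29.5% as many counts; counting ignored strand, so the 2 transcripts cannot be told apart. MYBPC3, cardiac myosin binding protein C, had the highest slope of all members at 1.35 ± 0.05 (SE), which was not separated from that of MYH6 (1.34 ± 0.05). MYH7B, a myosin heavy chain expressed at low level in heart and slow muscle, moved least among the thick filament genes (median 51.7 CPM, highest 222.8 CPM, slope 0.33 ± 0.03).

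The atrial light chains followed the other cardiomyocyte genes closely. MYL4 (atrial essential light chain, chr9:17602583-17614356, plus strand) was measured at 0.825 to 1485 CPM (median 171.5) in 10y-noCHF and at 2.06 to 2870 CPM (median 257) in 10y-MMVD-CHF. MYL7 (atrial regulatory light chain, chr16:14394398-14396228, plus strand) was measured at 0.619 to 1032 CPM (median 131) in 10y-noCHF and at 1.48 to 1658 CPM (median 162) in 10y-MMVD-CHF. For both genes CAV1047 was the highest of all dogs and CAV749 the lowest, and the groups overlapped. After sex, CHF and the measure were fitted, the residual SD was 0.56 for MYL4 and 0.45 for MYL7 on the log2 CPM scale.

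The ventricular light chains did not follow them as closely. MYL2 (ventricular regulatory light chain, exons within chr26:8855847-8863872, minus strand) had a median of 83 counts per dog, and was at 0 counts in CAV749 and CAV1939, which allows up to 3 counts in each. It was measured at 0 to 537.9 CPM (median 1.14) in 10y-noCHF and at 0.0596 to 22.9 CPM (median 1.58) in 10y-MMVD-CHF. The 10y-noCHF dogs CAV743 (31138 counts), CAV576 (4359 counts) and CAV865 (4167 counts) stood far above all others. The next dogs were the 10y-MMVD-CHF males CAV648 with 1580 counts and CAV828 with 1227. MYL3 (ventricular essential light chain, chr20:42347788-42353148, plus strand) was measured at 0.0516 to 99.7 CPM (median 5.61) in 10y-noCHF and at 0.0606 to 124 CPM (median 7.42) in 10y-MMVD-CHF. CAV743 had the most MYL3 counts (5772), followed by CAV1047 (4846). The corresponding residual SD was 2.46 for MYL2 and 1.29 for MYL3, the largest of the 34 members, against 0.24 for TCAP, the smallest.

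**Figure D3:**
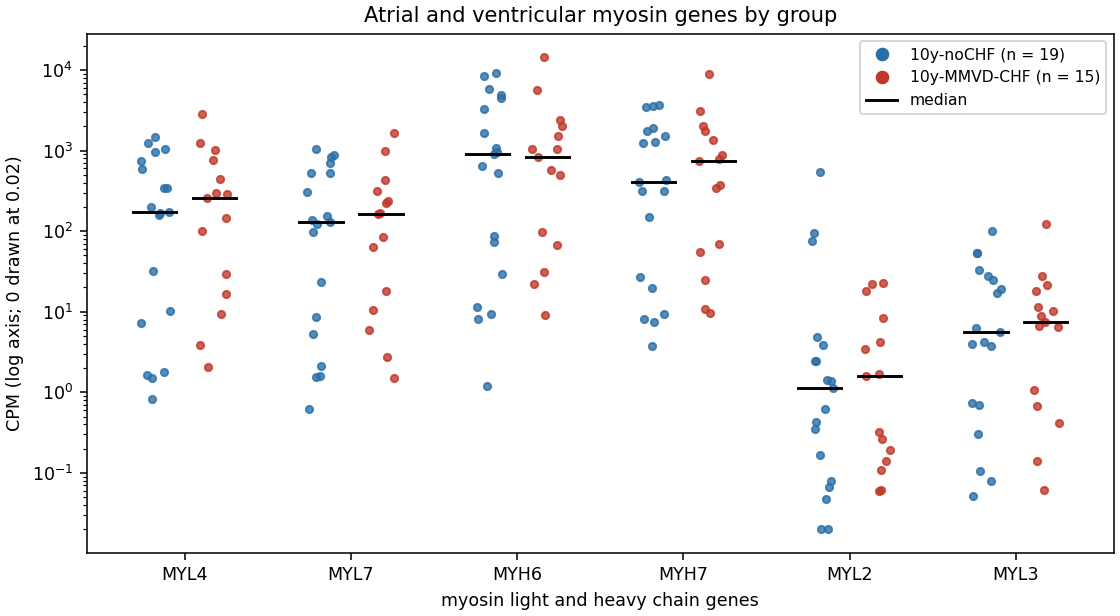
CPM (log axis, 0 drawn at 0.02) of 6 myosin genes in 19 10y-noCHF dogs (blue) and 15 10y-MMVD-CHF dogs (red), with black lines at the medians. The groups overlap for each gene, and for MYL2 3 blue points lie above all others, the highest at 537.9 CPM.

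Atrial and ventricular forms were compared within each dog as log2 ratios of CPM. The human and canine features differ in how length is counted, so the ratio is one of counts and not of molecules, while differences between dogs are not touched by length. MYL7 had 0.306 times as many counts as MYL2 in CAV576 and 0.566 times in CAV743. In CAV865 it had 8.79 times as many, and in the other dogs with any MYL2 counts between 12.5 and 731 times. CAV576 and CAV743 were thus the dogs in which MYL2 outnumbered MYL7, and in both it also outnumbered MYL4 (1860 counts in CAV576 and 19624 in CAV743). The MYL4 to MYL3 count ratio was again lowest in CAV576 (1.90) and CAV743 (3.40), and lay between 5.44 and 176 in the other dogs. CAV743 also held 38 counts of IRX4, a transcription factor of ventricular muscle, against at most 8 in any other dog. CAV576 had 0 counts of IRX4. This gene was picked after its values were seen, and its 60 counts over all dogs were too few for it to be tested. HEY2, from the same list of ventricular genes, went the other way. Among the 10y-noCHF dogs it was lowest in CAV743, at 51.0 CPM against a group median of 72.3 CPM. Over all dogs HEY2 fell as the measure of heart muscle RNA rose (edgeR slope -0.07, FDR = 0.00198). The part of this in its level in CAV743 was not tested, and the other genes of that list are not given by dog. In CAV576 the measure of heart muscle RNA was 2.59, below the median, and in CAV743 and CAV865 it was 5.64 and 6.95.

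**Figure D4:**
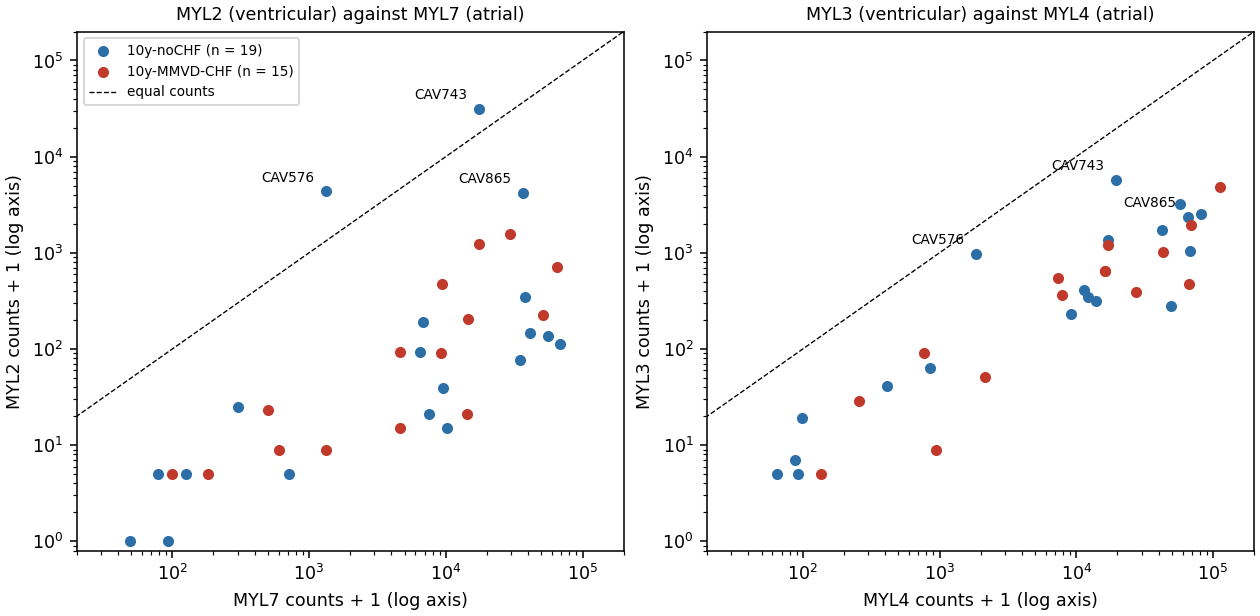
Counts of MYL2 against MYL7 (left) and of MYL3 against MYL4 (right) on log axes with 1 added, 1 point a dog (blue, 10y-noCHF; red, 10y-MMVD-CHF), with a dashed line at equal counts. CAV576 and CAV743 lie above the line at left, and all 34 dogs lie below it at right, with these 2 dogs nearest to it.

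Over the 10y-noCHF dogs the log2 ratio of MYL7 to MYL2 was 5.66 ± 3.16 (SD, n = 19), and over the 10y-MMVD-CHF dogs it was 5.92 ± 1.68 (SD, n = 15). The means did not differ detectably, with a difference of 0.26 ± 0.85 (SE, two-sided permutation test within sex, p = 0.777, 0.777 after adjustment over 3 pairs). The log2 ratio of MYL4 to MYL3 was 4.82 ± 1.18 (SD, n = 15) against 4.18 ± 1.53 (SD, n = 19), a difference of 0.64 ± 0.46 (SE; permutation test, p = 0.192, adjusted 0.575). The log2 ratio of MYH6 to MYH7 was 0.42 ± 0.68 (SD, n = 15) against 0.61 ± 0.88 (SD, n = 19), a difference of -0.18 ± 0.27 (SE; permutation test, p = 0.514, adjusted 0.771). A difference in group means was not detected for any of the 3 ratios. Without CAV743, CAV576 and CAV865, chosen after their MYL2 values were seen, the difference in the MYL7 to MYL2 ratio changed sign to -0.77 (permutation test, p = 0.254). TNNI1 to TNNI3 could not be formed. The mean log2 CPM of MYL4, MYL7 and MYH6 minus that of MYL2 and MYL3 ran from 0.17 in CAV576 over a median of 6.05 to 9.12 in CAV285, with a median of 5.99 over the 10y-MMVD-CHF dogs and of 6.12 over the 10y-noCHF dogs.

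The ratios also varied with the amount of heart muscle RNA. Over 34 dogs MYL4 to MYL3 rose with the measure (r = 0.45, permutation p = 0.00658, adjusted over 3 ratios 0.0197; rho = 0.52, permutation p = 0.00199, adjusted 0.00597), and r was 0.46 without the 2 dogs farthest from the median, 0.38 within 10y-MMVD-CHF and 0.50 within 10y-noCHF. MYH6 to MYH7 gave r = 0.36 (permutation p = 0.0365, adjusted 0.0548) and rho = 0.37 (permutation p = 0.0337, adjusted 0.0418), but r fell to 0.21 without those 2 dogs. Within 10y-MMVD-CHF r was 0.05 and within 10y-noCHF it was 0.55, so the pooled relation rests in part on those 2 dogs and was not seen in both groups. MYL7 to MYL2 gave r = 0.31 (permutation p = 0.0709, adjusted 0.0709) and rho = 0.35 (permutation p = 0.0418, adjusted 0.0418), with r at 0.28 without those 2 dogs, 0.30 within 10y-MMVD-CHF and 0.33 within 10y-noCHF. In dogs with few counts the prior count of 2 pulls a log2 ratio toward 0, and the part of this in the relation was not tested.

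After sex, CHF and the measure were fitted, the 2 light chains of each chamber still varied together, but so did many other pairs of members. The residuals of MYL4 and MYL7 had r = 0.83 (rho = 0.81), and those of MYL2 and MYL3 had r = 0.72 (rho = 0.58). The r of MYL2 and MYL3 fell to 0.48 with 2 dogs left out, so it rests in part on 2 dogs. Across chambers, r was -0.02 for MYL2 and MYL7, 0.14 for MYL2 and MYL4, 0.16 for MYL3 and MYL7 and 0.30 for MYL3 and MYL4. MYL2 had r = 0.45 with MYH7 and -0.33 with MYH6. The heavy chains did not divide by chamber throughout. MYH7 had r = 0.69 with MYL4, 0.54 with MYL3 and 0.41 with MYL7, and MYH6 had 0.69 with MYL7, 0.45 with MYL4 and -0.09 with MYL3. Values as high as that of MYL4 and MYL7 were also found outside the light chains, with r = 0.84 for MYL7 and MYBPC3 and 0.88 for LMOD2 and TTN. Of the pairs, 329 had rho above 0 and 232 below 0. Among those below 0 were MYBPC3 and TPM1 (r = -0.75) and MYL4 and PDLIM5 (r = -0.70). The measure was fitted as a straight line, and the part of any curvature in these residuals was not tested. These values are descriptive, come from 561 pairs of members over the same 34 libraries, and were not tested.

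The thin filament held 6 measured members. TNNT2, cardiac troponin T, which anchors the troponin complex to tropomyosin, was measured at 2.35 to 2170 CPM (median 244) in 10y-noCHF and at 3.09 to 4398 CPM (median 340) in 10y-MMVD-CHF. TNNI3, the inhibitory cardiac troponin I, was measured at 1.70 to 1045 CPM (median 144) and 2.27 to 1986 CPM (median 154) in the same order. TNNC1, the calcium-binding troponin C of heart and slow muscle, had medians of 83.0 and 147 CPM. In all 3 troponin genes the groups overlapped and CAV1047 was highest. ACTC1, cardiac alpha-actin, and LMOD2, a leiomodin that lengthens thin filaments, had slopes of 1.25 ± 0.05 and 1.29 ± 0.05 (SE). TPM1, alpha-tropomyosin, which smooth muscle and fibroblasts also express, never fell under 402 CPM and reached 5648 CPM, with a slope of 0.39 ± 0.03 (chr30:28051770-28080111, plus strand).

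Titin and the Z-disc held 14 members. TTN, the titin spring (chr36:22479045-22752943, minus strand), was measured at 0.645 to 2234 CPM (median 252) in 10y-noCHF and at 2.91 to 4549 CPM (median 439) in 10y-MMVD-CHF. Its antisense gene TTN-AS1 had 29.4% as many counts and cannot be told apart from TTN without strand. TCAP, the telethonin that caps titin at the Z-disc, ran closest of all members to the other cardiomyocyte genes, which accounted for 99.2% of the variance left after sex and CHF. LDB3, a PDZ and LIM protein that binds the alpha-actinin ACTN2, was next with 99.0%. ACTN2 itself, the crosslinker of Z-disc actin, had a slope of 1.28 ± 0.04. Slopes between 0.99 and 1.30 were found for MYPN (myopalladin), SYNPO2L, the actin-binding XIRP1 and XIRP2, CMYA5 and ANKRD1, a stretch-responsive nuclear and sarcomeric protein. NEBL, cardiac nebulette, was lower at 0.74 ± 0.04.

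FLNC, PDLIM5 and MYOZ2 shared the shallow slope of TPM1 and MYH7B. FLNC, the muscle filamin, stayed between 78.5 and 1108 CPM (slope 0.31 ± 0.03). Its antisense gene FLNC-AS1 had 7.94% as many counts and cannot be told apart from FLNC without strand. PDLIM5, an enigma-family scaffold found in many tissues, stayed between 86.7 and 961 CPM (slope 0.32 ± 0.03). MYOZ2, calsarcin-1, which tethers calcineurin to the Z-disc, stayed between 13.4 and 519 CPM (slope 0.46 ± 0.04). These 5 members were the ones with a slope under 0.5, and their highest dog exceeded their lowest by 9.67 to 38.7 times, against at least 104 times in the other members with counts in every dog. All 5 are among the 26 members read from human alignment features, and the part of intron reads in their levels was not tested. MYOZ2 departed in a further way, since CAV749, the dog with the least heart muscle RNA, held 67.4 CPM of it. That value was above the median of 63.2 CPM over the 34 dogs.

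The M-band and myosin assembly group held 3 members. MYOM1 and MYOM2, the myomesins that crosslink thick filaments, differed in slope (0.71 ± 0.04 and 1.31 ± 0.04, SE). MYOM1 kept at least 8.41 CPM in every dog, whereas MYOM2 reached 2 counts in CAV749. SMYD1, a muscle methyltransferase that assists myosin folding, ran from 0.0258 to 237 CPM. The energy and oxygen supply group held CKM, the muscle creatine kinase, CKMT2, its mitochondrial counterpart, and MB, myoglobin. CKM was measured at 0.516 to 1481 CPM (median 211) in 10y-noCHF and at 2.09 to 3427 CPM (median 276) in 10y-MMVD-CHF. The residual SD of MB was 0.98, the largest after those of both ventricular light chains.

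Levels could be compared between genes only among the 8 members with canine RefSeq exons, as CPM per kilobase of exon (RPKM). The median over dogs was 219.4 RPKM for TNNT2, 176 for TNNI3, 142 for CKM, 71.4 for MYH7, 59.1 for TCAP, 37.5 for MYBPC3, 6.59 for CKMT2 and 1.64 for MYL2. Neighbours in this order kept it in 32 of 34 dogs for TNNT2 over TNNI3 and in all 34 dogs for TCAP over MYBPC3, but in 20 of 34 for MYH7 over TCAP, which are thus not separated.

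No member was called between 10y-MMVD-CHF and 10y-noCHF (edgeR's quasi-likelihood test with sex as a fixed effect, FDR threshold 0.1), where 0.118% of all 19568 features were. DESeq2 and limma's voom with sample weights called 0 members as well, among 64 and 25 features called. At an unadjusted p under 0.05, 1 member (MYL2) passed with edgeR, beside 6.31% of all features. The log2 fold change was above 0 for 30 of 34 members (52.6% of all features), with a median of 0.19 against 0.01 over all features. With edgeR this direction rested on 1 dog: without CAV1047 all 34 members were below 0, with a median of -0.58, and still none was called. The group median of CPM was higher in 10y-MMVD-CHF for 28 members and lower for 6, and with voom 31 members were above 0. The members rise and fall together, so these counts are not separate observations. SEs had a median of 0.84, so the 95% intervals of the 32 members other than MYL2 and MYL3 reached from -1.76 to 2.21, and the intervals of 27 members held both -1 and 1, a change of 2-fold in either direction. The largest was MYL2, with a log2 fold change of -2.48 ± 1.17 (SE; edgeR p = 0.0422, FDR = 0.778). It was -1.09 without CAV743, -1.47 without CAV576, -3.69 without CAV1047 and 2.75 without CAV743, CAV576 and CAV865 together (edgeR FDR = 0.434). With DESeq2 it was 0.06 and with voom 0.74. The sign of the MYL2 contrast with edgeR was thus set by 3 dogs of the 10y-noCHF group.

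Fitting the 17 other cardiomyocyte genes as a covariate brought the median SE of the members down to 0.17. At an equal level of these genes no member was called between the groups (edgeR, FDR threshold 0.1), where 0.158% of all features were. For the 32 members other than MYL2 and MYL3 the log2 fold change lay between -0.47 and 0.40, and their 95% intervals reached from -0.81 to 0.81. These intervals are slightly narrower than the test implies, as that of MYPN lay just above 0 at edgeR p = 0.0578. At an unadjusted p under 0.05 4 members passed, beside 7.99% of all features. They were MYL2 (-3.74 ± 1.08, p = 0.0015, FDR = 0.259), NEBL (-0.47, FDR = 0.473), MYH7B (-0.36, FDR = 0.545) and TTN (0.40, FDR = 0.568). DESeq2 with the same covariate called 1 member, MYL2 (-3.85, DESeq2 FDR = 0.0136), where it called 0.69% of all features. With limma's voom the MYL2 value was 0.19, and with edgeR without CAV743, CAV576 and CAV865 it was 0.89 (FDR = 0.599).

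**Figure D5:**
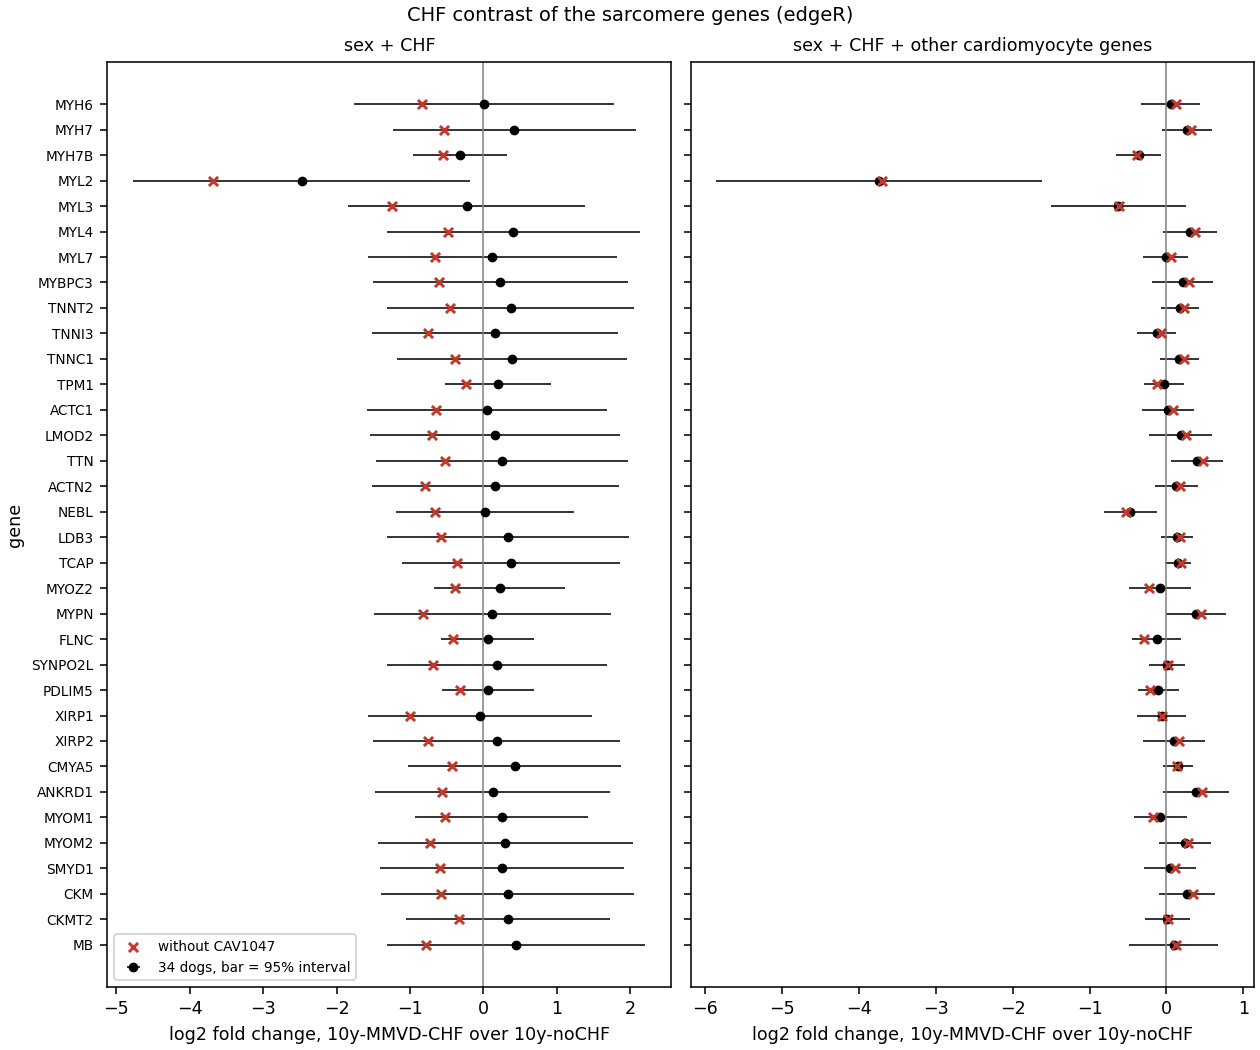
Log2 fold change of 10y-MMVD-CHF over 10y-noCHF for 34 members with edgeR, with sex in the model (left) and with sex and 17 other cardiomyocyte genes (right); black points with 95% intervals are fits to 34 dogs and red crosses fits without CAV1047. At left each cross is below 0; at right the crosses lie close to the points, and MYL2 stands apart at -3.74.

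Between males and females no member was called (edgeR, 0.143% of all features called, 0 of 34 members and 2.98% of features at an unadjusted p under 0.05). Compared with females, 33 of the 34 members were below 0 in males (51% of all features), with a median of -0.50 and a median SE of 0.83. The exception was MYL2 (2.13 ± 1.14, SE, edgeR p = 0.0696, not called), whose highest dog, CAV743, is a male. All 17 other cardiomyocyte genes were below 0 as well, with a median of -0.62. The members rise and fall together, so these counts are not separate observations. The part of single dogs in this direction was not tested. The difference of the CHF contrast between the sexes was called for no member and for 0% of all features (edgeR; at an unadjusted p under 0.05, 0 members and 6.02% of features), while DESeq2 called 3 features. Its SE had a median of 1.71, so only very large differences could have been detected.

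Of 40 other sarcomere genes 39 were tested, and 26 rose and 5 fell with the 17 cardiomyocyte genes (edgeR, FDR threshold 0.1), with a median slope of 0.29 against 1.22 for the members. ACTA1, the skeletal alpha-actin that heart muscle also expresses, was steepest at 1.33. Of 7 other atrial genes 4 rose and 3 fell with the measure, and of 2 other ventricular genes, HEY2 and IRX2, 0 rose and 1 fell. None of the 39, 7 and 2 genes was called between the CHF groups. The smallest p-values in that contrast were those of PDLIM3 (edgeR p = 0.0318, FDR = 0.747), ACTN3 and SYNPO2 among the sarcomere genes, NR2F1, NR2F2 and KCNJ3 among the atrial genes, and POPDC2 and TRIM63 among the 17 cardiomyocyte genes (FDR of at least 0.849 for each of these but PDLIM3). By rank, the features outside the members most like the mean log2 CPM of the members over 34 dogs were CASQ2 (rho = 0.996), MHRT, ACTA1, SMPX, NRAP, MYOM3, SH3BGR, ALPK2, MYO18B and C10orf71 (rho = 0.99 for each). CASQ2 and NRAP are among the 17 genes of the measure, and MHRT shares reads with MYH7.

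Markers of other cell types also moved with the measure. Of 6 adipocyte markers, among them ADIPOQ and PLIN1, 5 rose with it and 0 fell (edgeR, FDR threshold 0.1), with a median slope of 0.40. Their summed level was 2.50 to 173 CPM in 10y-noCHF and 4.20 to 142 CPM in 10y-MMVD-CHF. Of 9 smooth muscle markers 1 rose and 7 fell, and of 9 interstitial cell markers 0 rose and 8 fell. Of 10 fast skeletal muscle markers tested 4 rose and 1 fell, with a summed level of at most 287 CPM in any dog. The part of these in the members' values was not tested. Between the CHF groups 1 marker was called, the endothelial VWF (log2 fold change 1.40 ± 0.30, SE, edgeR FDR = 0.0678), where 0.118% of all features were. The other endothelial markers lay between -0.32 (KDR) and 0.28 (TEK), and none of them was called. Without CAV1047 the VWF value was 1.31 and no longer called (edgeR FDR = 0.113). Of 7 macrophage and 6 red blood cell markers tested 0 were called.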

How the data were processed

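Reads of polyadenylated mitral valve RNA were aligned by the authors to canFam4 (STAR) and summarized as raw counts with featureCounts 2.0.3, and these counts were deposited. A read was assigned to every feature it overlapped, strand was ignored and both reads of a pair were counted, so 71% of counts above 0 were even and counts overstate the number of fragments. Canine RefSeq features (2165) are exons, whereas human alignment features (21603) are mostly whole spans with introns, so per-length levels were compared between canine features alone. One column of counts (n = 1) belongs to no sample and was not used.

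Features reaching 100 counts over all dogs were tested with edgeR 4.0.16 (TMM, quasi-likelihood, sex as a fixed effect, Benjamini-Hochberg FDR threshold 0.1 over 19568 features) in R 4.3.3. Log2 CPM used a prior count of 2. Levels of single dogs are TMM-normalized CPM without a prior. DESeq2 1.42.0 and limma 3.58.1 voom were alternatives. Ratios were compared by permuting CHF labels within sex (100000 resamples). The edgeR and permutation tests were run on simulated data. For edgeR, effects were planted only in features of low dispersion. That check therefore does not cover the CHF contrast of members that vary widely between dogs, MYL2 among them.

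Members, lists and tests were chosen with earlier results of these data known. All members are named. From the lists of other sarcomere, atrial, ventricular and cardiomyocyte genes, up to 3 genes with the smallest edgeR p in the CHF contrast are named. From the marker lists of other cell types this rule names only genes under the FDR threshold. The 10 features outside the members with the highest rho to their mean are named too. ACTA1 as the steepest gene, IRX4 and examples of marker genes were named after their values were seen. A gene that this rule selects is not reported here. The samples are separate dogs.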

Additional observations from a re-analysis of the deposited data

Results flagged for a closer look

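Values far from the rest of their group, by Dixon's test at 95% within each sex and CHF group, were sought for 34 members (log2 CPM), 3 ratios and the atrial minus ventricular value. Of 152 groups of values 6 were flagged, where chance flags about 1 in 20 (7.6), so these flags are no more frequent than chance gives.

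Of the 10y-MMVD-CHF females (n = 6), CAV1047 stood above the others in FLNC (log2 CPM 10.11, next dog 7.49), PDLIM5 (9.91, next 7.79) and MYOZ2 (9.02, next 6.09). This dog also had the highest level of the 17 other cardiomyocyte genes, and these are members with shallow slopes on that level. The CHF contrast of the members is given with and without this dog in the report.

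Of the 10y-noCHF females (n = 10), CAV576 stood below the others in the log2 ratio of MYL7 to MYL2 (-1.71, next dog 4.42) and in the atrial minus ventricular value (0.17, next 4.23). Both use the same MYL2 and MYL7 counts, so they are not separate observations. Of the 10y-noCHF males (n = 9), CAV749 stood below the others in the log2 ratio of MYH6 to MYH7 (-1.66, next dog 0.02). It rests on 92 counts of MYH6 and 295 of MYH7, the fewest of both in any dog.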

How the results depend on the processing

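The count of members called was 0 in the CHF, sex and interaction contrasts and 34 for the slope in each alternative run, including 34 fits that each left out 1 dog (0 to 0 and 34 to 34). In the CHF contrast with the covariate it was 0 except with DESeq2, which called 1 (MYL2). Robust estimation of dispersion, also added after seeing the data, called 0. The members above 0 in the CHF contrast numbered 30, and 0 to 31 when dogs were left out in turn. The 0 came without CAV1047, where the median of the members turned from 0.19 to -0.58, and the next lowest was 23, without CAV373. With limma's voom the median of the members was 0.75 instead of 0.19; the cause was not tested. With the covariate 22 members were above 0, and 19 to 23 with dogs left out.

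MYL2 carried most of what changed. Its log2 fold change of -2.48 became 0.062 with DESeq2, 0.74 with voom and 2.75 without CAV743, CAV576 and CAV865, chosen after seeing the data. With the covariate it went from -3.74 to -3.85 with DESeq2 (then past the threshold), 0.19 with voom and 0.89 without these dogs. With dogs left out in turn it stayed between -3.69 and -1.09, and with the covariate between -3.95 and -1.83. The CHF difference in the log2 ratio of MYL7 to MYL2 became -0.77 without these 3 dogs and lay between -0.15 and 0.46 with dogs left out, falling below 0 without CAV576 or CAV743. The atrial minus ventricular difference of 0.41 became -0.28 without the 3 dogs.

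No paired analysis was possible because the dogs carry individual numbers that no other group shares. Depth limits MYL2 most, the member with a median of 83 counts, and dogs with little heart muscle RNA give few counts of other members too. The ratio of TNNI1 to TNNI3 was not run, since TNNI1 was not listed.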
